A study of Oryza longistaminata with 9 samples.

Results

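The MCM genes and PCNA encode the helicase that opens DNA for replication and the clamp that holds DNA polymerases on it. In a table of 46327 gene models, 10 were taken as members: every model whose description contains MCM or proliferating cell nuclear antigen, with MCM2, MCM3 and PCNA also given by identifier. Of the 10 members, 5 were described as subunits of the helicase ring (MCM2, MCM3, MCM5, MCM6 and MCM7), MCM8 and MCM9 as probable DNA helicases of the same family, 2 by an MCM protein domain alone (BGIOSGA003717 and BGIOSGA003719), and 1 was PCNA. No member was described as MCM4.

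MCM2 to MCM7 are ATPases that assemble into a single ring, with each subunit at a place of its own. Rings are loaded onto origins before S phase, which licenses each origin to fire once, and are later switched on as the replicative helicase. PCNA is a ring without motor activity that slides along DNA behind the fork and tethers polymerases, flap endonuclease and ligase. Proliferating plant tissues are known for high levels of these transcripts, and cells that leave the cycle for low levels.

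RNA was from anthers of Oryza longistaminata, a wild perennial rice, at 2 ages. The paper's results speak of isolated anther tissue, whereas its account of RNA extraction speaks of pollen. The paper places spikelets of 6 mm (Ls-6mm) at stage 6 of anther development, with microspore mother cells next to the tapetum. It places spikelets of 4 mm (Ls-4mm) at stage 4, when divisions produce the primary sporogenous cells. Each age had 3 libraries, with no treatment or mutation in either. The sources used here do not say whether the libraries came from separate plants, so p-values measure the spread between these libraries, which may be technical. Libraries of 8.5-mm spikelets were not analysed here.

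Library totals lay between 17076800 and 21232663 counts in Ls-6mm and between 14509449 and 16684146 counts in Ls-4mm. Libraries of the same age differed by more than read sampling (chi-square per degree of freedom of 2.06 to 3.49), so none was a copy of another. Of 23691 genes tested, 38.6% were lower in Ls-6mm and 42.0% were higher at an adjusted p under 0.05 in the quasi-likelihood test of edgeR. The median log2 fold change of all tested genes was 0.04. Levels are given as CPM, counts per 1e+06 counts of the library after TMM scaling, or, where genes are compared with each other, as the authors' FPKM, which also divides by coding length.

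The 9 members that could be tested were all lower in anthers of Ls-6mm than of Ls-4mm, and the fall was steepest in the ring subunits. With 9 of 9 lower, the members stood beside a background of 38.6% of all tested genes. Each of the 9 also had every Ls-6mm library below every Ls-4mm library, as did 39.0% of tested genes. A log2 fold change of −2 or lower was reached by 6 members, the 5 ring subunits and PCNA, and by 3.66% of tested genes. The median over the 9 members was −2.73. Each of them had at least 92 counts in every library of both stages, whereas the member left untested, BGIOSGA003717, had at most 11. In RNA of anther tissue, fewer cells that express a gene and less RNA per cell cannot be told apart.

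**Figure D1:**
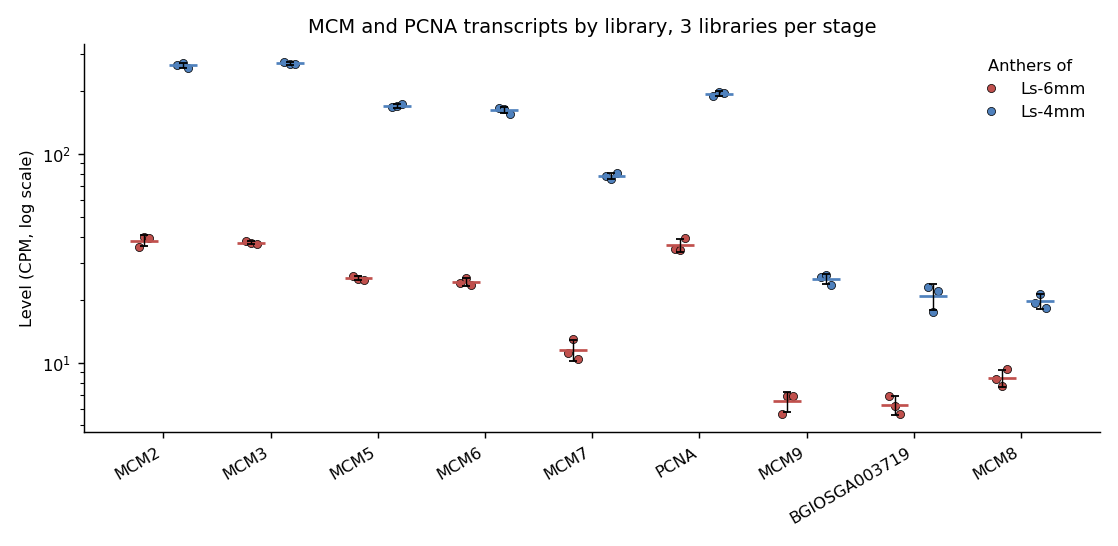
Level of each tested member in CPM (log axis), with a point for each of 3 libraries, a line for the mean and bars for the SD, Ls-6mm in red and Ls-4mm in blue. For none of the 9 genes do the points of the stages overlap, and the distance between stages is widest in the ring subunits and narrowest in MCM8.

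Summed markers of tapetum and pollen wall and of green tissue, and genes named for pollen proteins, were higher in Ls-6mm, opposite to the members. Summed markers of tapetum and pollen wall were at 4051 to 4182 CPM in Ls-6mm and 655 to 770 CPM in Ls-4mm, with 19 of 22 tested genes higher, 2 lower and 15 of 54 matched genes at 0 in every library. Markers of green tissue were at 5643 to 5856 CPM in Ls-6mm and 2227 to 2567 CPM in Ls-4mm, with 39 of 44 tested genes higher and 4 lower, and 1 of 49 at 0 throughout. Genes named for pollen proteins, which need not mark pollen itself, were at 15683 to 16152 CPM in Ls-6mm and 1720 to 1906 CPM in Ls-4mm. Of these, 34 of 47 tested genes were higher and 8 lower, and 26 of 106 were at 0 throughout.

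Genes were also matched by words for meiocytes, among them domain names that need not be particular to meiosis. Of these, 3 of 4 tested genes were lower and 1 of 5 was at 0 throughout. Their summed levels were 15.1 to 18.7 CPM in Ls-6mm and 69.6 to 80.4 CPM in Ls-4mm. The most abundant, a HORMA domain gene (BGIOSGA014841), averaged 9.53 ± 0.718 CPM in Ls-6mm and 56.1 ± 5.05 CPM in Ls-4mm. Its log2 fold change was −2.56. A Rad21/Rec8-like gene (BGIOSGA028336) had the largest called change, −3.16 on the log2 scale, at 0.601 CPM in Ls-6mm and 5.41 CPM in Ls-4mm. SPO11-1 (BGIOSGA013572), which makes the breaks that start meiotic recombination, averaged 5.80 ± 1.16 CPM in Ls-6mm and 6.78 ± 0.391 CPM in Ls-4mm and did not pass (adjusted p = 0.192, edgeR). The lower sum in Ls-6mm thus came mostly from the HORMA domain gene, which its description does not show to be meiotic. The paper sets the stage of microspore mother cells at spikelets of 6 mm. Whether the sequenced anthers were at that stage was not tested. The part of these cell types in the fall of the MCM and PCNA transcripts was not tested.

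Among the ring subunits, MCM3 had the highest level per length (FPKM) at both ages and the largest fall. MCM3 (BGIOSGA020045, chromosome 5 from 24847361 to 24851976, plus strand) stood at 38.2, 37.5 and 36.9 CPM in the Ls-6mm libraries, against 277, 271 and 269 CPM in the Ls-4mm libraries. Within each stage its libraries were nearly level, and the stages lay far apart. Its log2 fold change was −2.86 (standard error 0.04, adjusted p = 5.29e-19, edgeR), which left 13.8% of the Ls-4mm level.

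MCM2, the subunit through which the ring also binds histones, followed closely. For MCM2 (BGIOSGA035270, chromosome 11 from 13599503 to 13605143, plus strand), Ls-6mm libraries gave 35.9, 39.9 and 39.5 CPM and Ls-4mm libraries 268, 272 and 257 CPM. These rest on 600 to 809 counts in Ls-6mm and 4109 to 4709 counts in Ls-4mm. The stages did not overlap, and the log2 fold change was −2.79 (standard error 0.05, adjusted p = 4.29e-18, edgeR). MCM2 and MCM5 are known as the gate at which the ring opens around DNA.

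MCM5 (BGIOSGA005432, chromosome 2 from 36032036 to 36035908, minus strand) was at 26.0, 25.3 and 24.8 CPM in Ls-6mm libraries, against 167, 169 and 173 CPM in Ls-4mm libraries. Its log2 fold change was −2.74 (standard error 0.05, adjusted p = 3.02e-18, edgeR). MCM6 (BGIOSGA019443, chromosome 5 from 9926197 to 9932207, plus strand), whose partners in the ring include MCM2, gave 24.0, 25.5 and 23.5 CPM in Ls-6mm, against 166, 165 and 156 CPM in Ls-4mm. In both genes the 3 libraries of a stage lay close together and well apart from the other stage. The log2 fold change of MCM6 was −2.73 (standard error 0.05, adjusted p = 8.55e-18, edgeR).

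MCM7, part of the catalytic core of the ring with MCM4 and MCM6, had the lowest level of the 5. MCM7 (BGIOSGA036008, chromosome 12 from 18451670 to 18456504, minus strand) was at 11.1, 12.97 and 10.5 CPM in Ls-6mm libraries, against 78.8, 75.7 and 80.6 CPM in Ls-4mm libraries. Its Ls-6mm libraries varied more than those of the other ring subunits (coefficient of variation 11.3%), yet the highest of them stayed far below the lowest of Ls-4mm. The log2 fold change was −2.76 (standard error 0.07, adjusted p = 1.04e-15, edgeR). The 5 ring subunits thus retained between 13.8% and 15.04% of their Ls-4mm level, and the genes lie on 4 chromosomes.

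Summed over the 5 genes, ring transcripts came to 137 ± 3.42 CPM in Ls-6mm and 948 ± 10.9 CPM in Ls-4mm (SD, n = 3 each). Per length, the sum was 53.8 ± 1.35 FPKM in Ls-6mm, against 382 ± 5.81 FPKM in Ls-4mm. The subunits were not equally abundant at either age. The highest over the lowest subunit was 3.09 ± 0.322 in Ls-6mm and 3.27 ± 0.121 in Ls-4mm on the FPKM scale, with MCM3 on top and MCM7 at the bottom at both ages.

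The make-up of the ring transcripts changed little beside the fall of the sum. MCM2 made up 23.7 ± 1.23% of the summed FPKM in Ls-6mm and 23.7 ± 0.519% in Ls-4mm. MCM5 held 20.6 ± 0.690% in Ls-6mm and 20.0 ± 0.576% in Ls-4mm. MCM7 held 9.40 ± 0.829% in Ls-6mm and 9.27 ± 0.359% in Ls-4mm. For these 3 subunits the libraries of the stages overlapped.

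The shares of MCM3 and MCM6 did not overlap between stages, though they moved by little. MCM3 held 28.1% to 29.7% over the Ls-6mm libraries and 30.1% to 30.6% over the Ls-4mm libraries. MCM6 held 17.1% to 17.7% in Ls-6mm and 16.3% to 17.0% in Ls-4mm. Shares add up to a whole, so they are not independent of each other, and no test was applied to them.

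**Figure D2:**
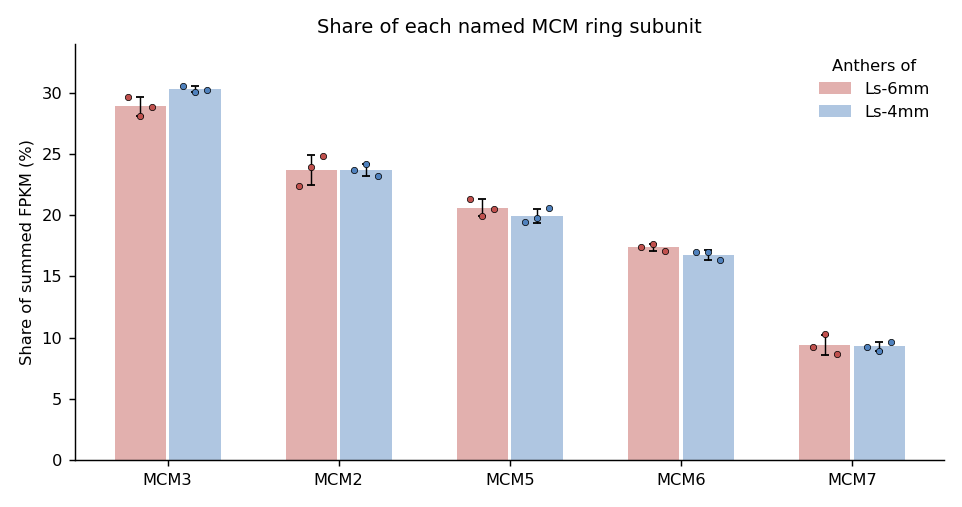
Share of each named ring subunit in their summed FPKM (%), Ls-6mm in red left of Ls-4mm in blue, with bars for the mean, points for the 3 libraries and error bars for the SD. The order MCM3, MCM2, MCM5, MCM6, MCM7 holds in both stages, with MCM3 at 28.9% in Ls-6mm and 30.3% in Ls-4mm.

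PCNA was the most abundant member per length at both ages and fell less steeply than the ring. PCNA (BGIOSGA009238, chromosome 2 from 36399994 to 36401684, plus strand) was at 35.2, 34.6 and 39.6 CPM in Ls-6mm libraries, against 189, 199 and 197 CPM in Ls-4mm libraries. The highest Ls-6mm library, replicate 3, remained far under every Ls-4mm library. Its log2 fold change was −2.42 (95% interval −2.52 to −2.32, adjusted p = 6.19e-17, edgeR), with 18.7% of the Ls-4mm level left. The interval nearest to it among the ring subunits was that of MCM7, from −2.90 to −2.62.

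On the FPKM scale PCNA averaged 44.1 ± 3.29 in Ls-6mm and 242 ± 4.73 in Ls-4mm (SD, n = 3 each). That placed it above 79.8% of tested genes in Ls-6mm and above 97.6% in Ls-4mm. The ratio of PCNA to MCM3 was 2.84 ± 0.255 in Ls-6mm and 2.09 ± 0.0865 in Ls-4mm, and the stages did not overlap. By a two-sided exact permutation test over the 6 libraries this gave p = 0.1, the smallest p that 3 against 3 libraries allow (0.129 adjusted over 9 ratios). MCM3 fell most of the tested members, so a higher mean ratio to it in Ls-6mm follows from that choice of reference.

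MCM8 and MCM9 do not belong to the MCM2 to MCM7 ring. In animals they form a helicase of their own that serves recombination repair, and in Arabidopsis MCM8 is needed to mend meiotic DNA breaks. Both averaged below every ring subunit per length and fell less.

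MCM8 (BGIOSGA020002, chromosome 5 from 24228709 to 24237067, plus strand) had 8.31, 7.70 and 9.29 CPM in Ls-6mm libraries, against 19.4, 21.4 and 18.3 CPM in Ls-4mm libraries. The stages were closer than in any other tested member, but did not overlap. Its log2 fold change was −1.23 (95% interval −1.43 to −1.03, adjusted p = 8.76e-09, edgeR), so that 42.6% of the Ls-4mm level remained.

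MCM9 (BGIOSGA021655, chromosome 6 from 7033865 to 7042203, minus strand) had 5.68, 6.91 and 6.95 CPM in Ls-6mm libraries, against 25.8, 26.3 and 23.6 CPM in Ls-4mm libraries. These values rest on 95 to 140 counts in Ls-6mm and 396 to 455 counts in Ls-4mm. No library of either stage reached the other stage. The log2 fold change was −1.95 (95% interval −2.15 to −1.75, adjusted p = 1.19e-11, edgeR), and the interval shares no value with that of MCM8.

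Relative to MCM3, both were thus higher in Ls-6mm. MCM8 over MCM3 was 0.219 ± 0.0235 in Ls-6mm and 0.0707 ± 0.00574 in Ls-4mm on the FPKM scale. MCM9 over MCM3 was 0.198 ± 0.0247 in Ls-6mm and 0.106 ± 0.00525 in Ls-4mm. Neither ratio overlapped between stages.

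The balance between the pair shifted as well, with MCM8 over MCM9 at 1.11 ± 0.151 in Ls-6mm and 0.667 ± 0.0273 in Ls-4mm. In each of these 3 ratios every Ls-6mm library was above every Ls-4mm library (two-sided exact permutation p = 0.1, the smallest possible, 0.129 adjusted over 9 ratios). Within the ring, MCM5 over MCM3 was 0.713 ± 0.00439 in Ls-6mm and 0.659 ± 0.0220 in Ls-4mm, and MCM6 over MCM3 was 0.601 ± 0.0241 in Ls-6mm and 0.553 ± 0.0122 in Ls-4mm, both also at exact permutation p = 0.1. MCM2 and MCM7 relative to MCM3 overlapped between stages (exact permutation p = 0.4 and 0.6). As MCM3 fell most of the tested members, every mean ratio to it was bound to be higher in Ls-6mm. The direction of the ratios to MCM3 is thus no result separate from the fold changes.

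**Figure D3:**
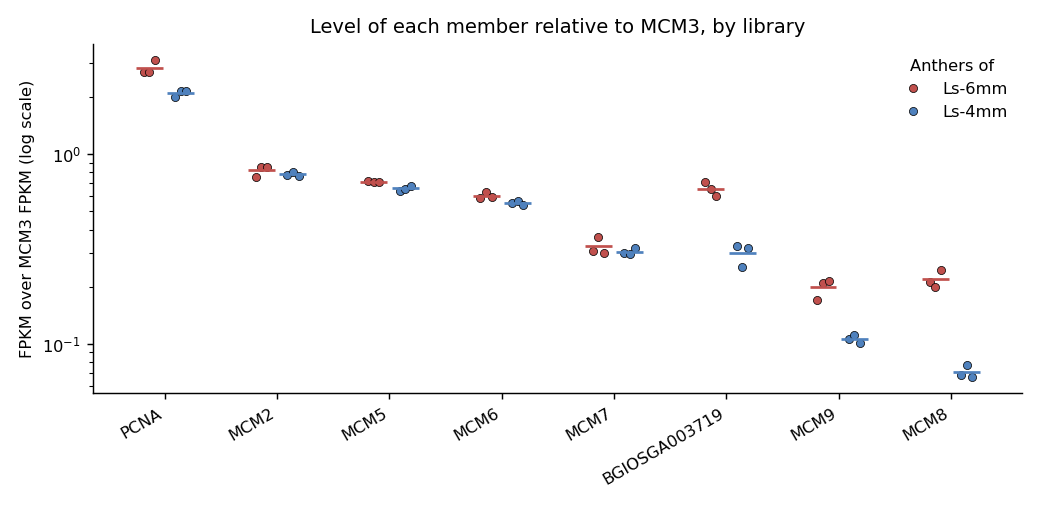
FPKM of each other tested member over the FPKM of MCM3 in the same library (log axis), with points for the 3 libraries and lines for the mean, Ls-6mm in red left of Ls-4mm in blue. MCM2 and MCM7 overlap between stages, while PCNA, MCM8, MCM9 and BGIOSGA003719 lie higher in Ls-6mm, most so MCM8 at 0.219 in Ls-6mm and 0.0707 in Ls-4mm. MCM3 fell most of the tested members, so the mean ratio of each other gene is higher in Ls-6mm.

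The members known only by an MCM domain lie 23053 bases apart on chromosome 1. BGIOSGA003719 (22563214 to 22566274, plus strand), described by a domain of the MCM2/3/5 family, had 6.94, 6.22 and 5.66 CPM in Ls-6mm libraries, against 23.1, 17.5 and 21.9 CPM in Ls-4mm libraries. Replicate 2 of Ls-4mm was the lowest of its stage and still well above Ls-6mm. The log2 fold change was −1.73 (standard error 0.12, adjusted p = 8.77e-10, edgeR). Its coding length of 588 bases is short beside the 2178 to 2886 bases of the ring subunits, and its level relative to MCM3 was 0.657 ± 0.0562 in Ls-6mm and 0.301 ± 0.0410 in Ls-4mm per length.

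BGIOSGA003717 (22535548 to 22540160, plus strand), described by the OB domain with which MCM proteins bind DNA, had 0, 0 and 2 counts in Ls-6mm libraries, against 7, 11 and 8 counts in Ls-4mm libraries. It was the 1 member too rare to be tested. Summed counts of 2 in Ls-6mm and 26 in Ls-4mm, divided by library size, gave a ratio of 0.0716 (95% exact interval 0.00824 to 0.286, for counting error only). Without the filter on low counts its log2 fold change was −3.58 (standard error 0.91, adjusted p = 0.000389, edgeR).

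Between them lies BGIOSGA003718 (22541092 to 22545391, plus strand), which is no member, since its description reads DNA helicase, but which the table assigns to the MCM family. It was singled out after its values were seen. It stood at 11.3, 13.3 and 12.2 CPM in Ls-6mm libraries, against 97.6, 95.1 and 87.8 CPM in Ls-4mm libraries. Its log2 fold change was −2.92 (standard error 0.07, adjusted p = 2.42e-16, edgeR), beside −2.86 to −2.73 in the ring subunits. The gap to BGIOSGA003717 is 931 bases and that to BGIOSGA003719 is 17822 bases. The sequences of these neighbouring models were not compared, and how reads were divided between them was not tested. No gene model in the table overlaps a member.

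Set in order of FPKM, the members in Ls-4mm were PCNA (242), MCM3 (116), MCM2 (90.6), MCM5 (76.2), MCM6 (64.0), MCM7 (35.4), BGIOSGA003719 (34.9), MCM9 (12.3), MCM8 (8.19) and BGIOSGA003717 (0.584). Of these neighbours, MCM7 and BGIOSGA003719 overlapped between libraries. In Ls-6mm the order was PCNA (44.1), MCM3 (15.5), MCM2 (12.8), MCM5 (11.1), BGIOSGA003719 (10.2), MCM6 (9.34), MCM7 (5.06), MCM8 (3.41), MCM9 (3.08) and BGIOSGA003717 (0.0446). There BGIOSGA003719 overlapped both MCM5 and MCM6, and MCM8 overlapped MCM9.

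Other genes of the replication fork mostly fell with the members, by less in the median. The 7 lists of replication machinery, matched by words in the descriptions, held 40 further genes, of which 37 were tested, 35 fell and 1 rose in Ls-6mm. Their median log2 fold change was −1.67, beside −2.73 for the tested members and 0.04 for all tested genes.

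The 4 genes matched to origin recognition, which marks the sites where rings are loaded, were all lower (median log2 fold change −1.52). ORC2 (BGIOSGA011320) averaged 20.6 ± 2.01 CPM in Ls-6mm and 35.2 ± 3.43 CPM in Ls-4mm, a log2 fold change of −0.77. ORC6 (BGIOSGA023868) fell by 1.97 on the log2 scale.

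CDC45 and GINS join the loaded ring to form the active helicase. Of 5 such genes, 4 were lower and none was higher (median −0.998). Of the CDC45-like genes, BGIOSGA034719 averaged 3.05 ± 0.942 CPM in Ls-6mm and 12.2 ± 1.24 CPM in Ls-4mm, a fall of 2.01 on the log2 scale, and BGIOSGA036924 fell by 1.92.

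The GINS genes were spread from a fall of 0.998 on the log2 scale in BGIOSGA019963 to no call. PSF2 (BGIOSGA001996) had a log2 fold change of −0.33. SLD5 (BGIOSGA019166) had 19.4, 18.1 and 18.6 CPM in Ls-6mm libraries, against 21.0, 18.8 and 19.9 CPM in Ls-4mm libraries. The stages overlapped, and its log2 fold change of −0.09 did not pass (standard error 0.08, adjusted p = 0.298, edgeR), though with library size as the only scaling it was −0.23 (adjusted p = 0.0164).

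Replication factor C opens the PCNA ring and loads it, and the 4 genes whose descriptions matched it were lower (median log2 fold change −1.69). The large subunit RFC1 (BGIOSGA035474) averaged 112 ± 4.82 CPM in Ls-6mm and 195 ± 5.72 CPM in Ls-4mm, a fall of 0.80 on the log2 scale. A gene with the replication factor C C-terminal domain (BGIOSGA005509) fell by 1.71. A further gene of that description (BGIOSGA016942) fell by 2.39, close to PCNA itself at 2.42.

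Of 9 genes of the replicative polymerases and primase, 8 were lower and 1 was higher (median −2.24). DNA primase (BGIOSGA018215), which lays down the RNA primers, averaged 14.5 ± 0.295 CPM in Ls-6mm and 68.5 ± 2.95 CPM in Ls-4mm. The large primase subunit (BGIOSGA024439) fell by 2.73 on the log2 scale, as much as MCM6. The 1 higher gene, of DNA polymerase delta subunit 4 (BGIOSGA026550), had 11, 23 and 16 counts in Ls-6mm libraries, against 0 counts in every Ls-4mm library. Against a floor of 3 counts over the Ls-4mm libraries it was at least 15.5-fold higher.

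Single-strand binding by replication protein A was represented by 5 genes, of which 3 were tested and all 3 were lower (median −1.14), among them BGIOSGA005984 at −1.14 and BGIOSGA005317 at −2.08. The 5 genes in the list of Okazaki fragment joining, flap endonucleases and DNA ligases, were lower as well, but by a median of only −0.60. The descriptions do not say which of the ligases act in replication. DNA ligase (BGIOSGA031653) fell by 0.43. Among the flap endonucleases, FEN1-A (BGIOSGA017650) fell by 2.003 on the log2 scale and FEN1-B (BGIOSGA013884) by 0.51, a difference that was not tested. FEN1-A averaged 20.2 ± 0.250 CPM in Ls-6mm and 81.1 ± 4.87 CPM in Ls-4mm, against 50.3 ± 3.49 CPM in Ls-6mm and 71.5 ± 2.69 CPM in Ls-4mm for FEN1-B.

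In nucleotide supply 7 of 7 tested genes were lower, from −2.85 to −1.23 on the log2 scale, with a median log2 fold change of −2.24. Ribonucleoside-diphosphate reductase (BGIOSGA030293), which makes deoxyribonucleotides, averaged 20.8 ± 1.65 CPM in Ls-6mm and 150 ± 3.82 CPM in Ls-4mm, a fall of 2.85 on the log2 scale. A small chain gene (BGIOSGA021510) fell by 1.48.

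Chromatin made behind the fork followed in most genes. Of 49 tested genes of core histones and chromatin assembly, 46 were lower and 2 were higher (median −1.77). Probable histone H2A.5 (BGIOSGA010990) averaged 218 ± 13.7 CPM in Ls-6mm and 909 ± 67.4 CPM in Ls-4mm, and a histone H2A (BGIOSGA011918) fell by 2.75 on the log2 scale. The higher genes were probable histone H2AXa (BGIOSGA013476), which rose by 2.25 on the log2 scale, and a histone H3.3 gene (BGIOSGA012789), whereas the other histone H3.3 gene (BGIOSGA016512) fell by 0.29. Histone H3.3 is a variant deposited outside replication. BGIOSGA012789 averaged 691 ± 12.1 CPM in Ls-6mm and 646 ± 19.0 CPM in Ls-4mm. Its log2 fold change was 0.10 (adjusted p = 0.0154, edgeR), but −0.04 with library size as the only scaling. It also failed to pass without Ls-4mm replicate 3 (adjusted p = 0.0918) and without Ls-6mm replicate 2 (adjusted p = 0.0609, edgeR). Nor did it pass with limma on log2(FPKM + 1) (adjusted p = 0.192) or on log2(FPKM + 0.1) (adjusted p = 0.181).

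E2F factors are known in plants as activators of MCM and PCNA genes, and retinoblastoma-related proteins as their repressors. Retinoblastoma-related protein 1 (BGIOSGA026573) averaged 15.5 ± 0.800 CPM in Ls-6mm and 161 ± 6.18 CPM in Ls-4mm. It fell by 3.37 on the log2 scale (standard error 0.05, adjusted p = 2.14e-18, edgeR), further than any ring subunit. Of the 7 genes in the E2F and retinoblastoma list, 5 were lower, none was higher and 2 were not called (median −0.64). The most abundant E2F or DP gene (BGIOSGA001024), whose description names a DP factor, fell by 0.97. Among genes described with an E2F transcription factor domain, BGIOSGA006304 fell by 0.64. In the same group BGIOSGA015126 (−0.11) and BGIOSGA015708 (0.13) were not called.

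Cyclins and cyclin-dependent kinases moved either way. Of 27 tested, 19 were lower and 7 were higher (median −0.55). Log2 fold changes ran from −2.78 to 9.43. Of the 19 lower genes, 10 fell at least 2-fold at an adjusted p of at most 0.001 (edgeR). The most abundant, CDKG-2 (BGIOSGA016643) and CDKE;1 (BGIOSGA037909), fell by 0.41 and 0.55 on the log2 scale. A gene with a cyclin C-terminal domain (BGIOSGA008582) averaged 5.04 ± 0.381 CPM in Ls-6mm and had 0 counts in every Ls-4mm library, so that it was at least 82.8-fold higher. Over all 10 lists, 105 of 120 tested genes were lower and 10 were higher.

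**Figure D4:**
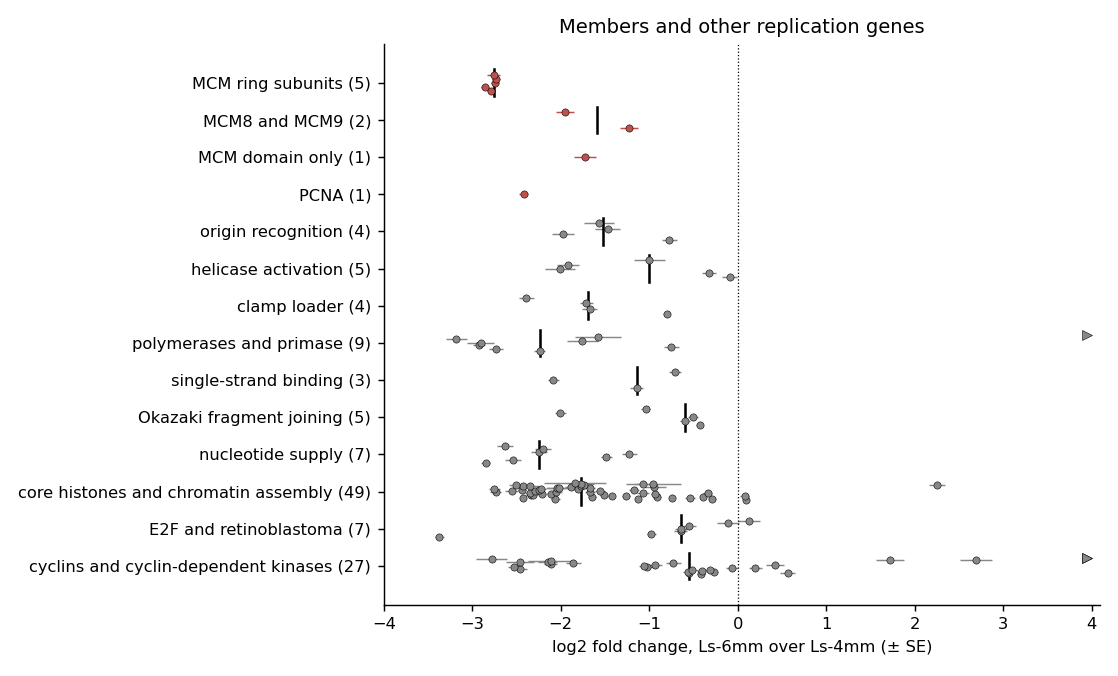
Log2 fold change of Ls-6mm over Ls-4mm for each tested gene (points, with bars of 1 standard error), grouped by role, with members in red, other replication genes in grey, the number of genes in brackets, a line at the median of groups of more than 1 gene, and triangles for genes beyond the axis, which had 0 counts in Ls-4mm. The ring subunits lie between −2.86 and −2.73, while MCM8 at −1.23 lies nearest to 0 among the members.

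Genes were also ranked by how near their centred log2 CPM over the 6 libraries lay to the median profile of the ring subunits. Among 6448 named genes whose higher stage averaged 10 CPM or more, the nearest was ribonucleoside-diphosphate reductase (BGIOSGA030293, distance 0.184). The ring subunits themselves lay at 0.0958 to 0.178. Next came a gene of the Tim17/Tim22/Tim23 family (BGIOSGA019038, 0.190), whose relatives import proteins into mitochondria, an SSXT protein (BGIOSGA036157, 0.193), and the histone H2A genes BGIOSGA019051 (0.207) and BGIOSGA011918 (0.220). Such distances mostly reflect 1 contrast between 2 stages and are given as a description.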

How the data were processed

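RNA of anthers was sequenced on an Illumina HiSeq platform after oligo(dT) enrichment. The submitters' processing notes name HISAT2 2.0.5 and featureCounts 1.5.0-p3. Count values are whole numbers per gene as deposited, without normalization. The authors derived FPKM from these counts, the coding length and a scaled library size. The sources used here do not give the strand setting. Positions are as the table lists them. Its identifiers carry the prefix of the O. sativa subsp. indica annotation, whereas the paper points to an O. longistaminata sequence, so the assembly is not settled. Another 36 columns of per-sample values matched no sample title and were not used. Columns of the authors' own comparisons (fold changes and p-values) were not used.

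Low genes were removed by filterByExpr (counts of at least 10, total of at least 15), and the rest were scaled by TMM and tested with edgeR 4.0.16 (R 4.3.3), quasi-likelihood, with stage as the only term. The p-values were adjusted by Benjamini-Hochberg over all 23691 genes and called under 0.05. Errors are SD over 3 libraries or standard errors of the fit. Scripts were tested on simulated data. The 95% interval of a count ratio and the floor of 3 counts over a stage cover counting error only.

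Members and lists were chosen with earlier results of these data known. Named genes were all members and the 5 nearest in pattern. In each list of replication and cell cycle genes, and in that matched by words for meiocytes, the 2 with the highest mean were named. The 1 with the largest called change was named as well. BGIOSGA003718, BGIOSGA019963, BGIOSGA036924, BGIOSGA013476, BGIOSGA016512, BGIOSGA006304, BGIOSGA015126 and BGIOSGA015708 fall outside this rule and were chosen after their values were seen. Alternatives were DESeq2 1.42.0, RLE factors, scaling by library size alone, all genes with a count, only genes at 10 or more counts in all libraries, an adjusted p of at most 0.001 with a change of 2-fold or more, replicate number as a block, limma 3.58.1 on log2(FPKM + 1) and log2(FPKM + 0.1), and each library left out in turn.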

Additional observations from a re-analysis of the deposited data

How the results depend on the processing

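The fold changes of the 9 tested members kept their direction and call in 126 of 126 alternative values, from −2.99 to −2.80 for MCM3, −2.56 to −2.36 for PCNA and −1.37 to −1.06 for MCM8. BGIOSGA003718, the genes named by rule from the lists of other replication and cell cycle genes, and the 5 nearest in pattern did so in 412 values, with exceptions in histone H3.3 (BGIOSGA012789) and SLD5. Marker genes were not run under the alternatives. The count of members lower was 10 without the filter and with DESeq2, which also test BGIOSGA003717. With an adjusted p of at most 0.001 and at least a 2-fold change, 3145 genes were lower and 5591 higher, with 74 lower and 6 higher genes over all 10 of these lists and 9 members lower. There the genes lower were 1 for E2F and retinoblastoma, 10 for cyclins and their kinases, 2 for helicase activation and 2 for Okazaki fragment joining. Library size as the only scaling shifted log2 fold changes by −0.14 and gave 10431 genes lower and 8951 higher, and turned histone H3.3 (BGIOSGA012789) to a log2 fold change of −0.039. Leaving out each library in turn gave 8935 to 9114 genes lower, 9760 to 10148 higher, 9 members lower each time, and 104 to 105 lower and 8 to 12 higher genes over these lists. With the replicate number as a block 8991 genes were lower and 9833 higher, and 9 members stayed lower. Same-numbered libraries did not deviate together (r of −0.04 to −0.01 across genes). With 3 libraries per stage this cannot show whether they shared a plant or a batch. Adding BGIOSGA003718 to the ring sum, an alternative chosen after seeing the data, moved the shares of MCM2, MCM3, MCM5, MCM6 and MCM7 to 21.6%, 26.3%, 18.7%, 15.8% and 8.54% in Ls-6mm, and to 21.3%, 27.3%, 17.98%, 15.1% and 8.35% in Ls-4mm, since the sum grew. Depth limits BGIOSGA003717, with at most 11 counts in a library.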
